A study of Homo sapiens with 16 samples.

Results

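The genes described here are 32 enzymes and regulators of cholesterol and fatty acid synthesis, taken by name from the 26258 genes of the deposited expression table. All 32 were present, and all 32 were among the 15019 genes that passed the filter on low values and were tested. They were divided by role into 6 genes of the mevalonate pathway, 11 of the steps from squalene synthesis to cholesterol, 5 of sterol sensing and transport, 8 of fatty acid synthesis and desaturation and 2 of glycerolipid synthesis.

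The cells were Huh7 and Hep3B, a pair of established human hepatocellular carcinoma lines. Each line was sequenced as parental cells and as DMSO cells, both labelled untreated, and as 2 Sorafenib-resistant derivatives, IR, selected in rising drug concentrations, and CR, selected in a constantly high one. The resistant cells were labelled as treated with Sorafenib, a multi-kinase inhibitor, at 7 µM. DMSO is the solvent of the drug, and its concentration and the time in it are not given in the sources used here. Each of the 8 groups had 2 libraries, 16 in all, and each regimen is represented by 1 resistant line per parent. The methods state that RNA was taken in biological triplicates, while the labels give 2 libraries per group and do not say that these came from separate cultures, so p-values measure the spread between these libraries, which may be technical.

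Cells make cholesterol from acetyl-CoA through mevalonate, and the same precursor feeds fatty acids. The transcription factors SREBP-1 and SREBP-2, encoded by SREBF1 and SREBF2, drive most of these genes. When sterols are scarce, the escort protein SCAP carries SREBP from the endoplasmic reticulum to the Golgi, where it is cut to its active form. INSIG1 holds SCAP back when sterols are plentiful, and is itself an SREBP target. The liver is the main site of lipid synthesis for export.

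The table held CPM, the reads of a gene scaled to a fixed library total, from which whole reads were recovered, with 46613302 to 76860251 reads per library. The spread between replicates over all genes was widest in Huh7 DMSO and Huh7-IR, where the SD of the log2 difference was 0.571 and 0.566, against 0.236 to 0.310 in the other groups. The 7 hepatocyte markers ALB, AFP, APOA1, APOB, HNF4A, TF and FGB summed to between 10408 and 27133 CPM in the 4 untreated Huh7 libraries, and to 99.4 and 397 CPM in Huh7-IR and 1323 and 2719.5 CPM in Huh7-CR. In Hep3B the same sum was between 16724 and 33482 CPM in untreated cells, 2380.2 and 8232 CPM in IR and 959.9 and 1692 CPM in CR. Of 4 markers of other cell types, the leukocyte gene PTPRC and the endothelial gene PECAM1 stayed at or under 1.32 and 4.4 CPM and DCN at or under 2.5 CPM, while the collagen gene COL1A1 was at 1.97 CPM or less in untreated cells and at 11.5 to 66.2 CPM in resistant cells. The hepatocyte sum was lower in every resistant library than in every untreated library of its line, and the part of this in the results below was not tested. In bulk libraries, fewer expressing cells and less RNA per cell cannot be told apart.

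The 2 members called in the same direction in at least 3 of the 4 comparisons of resistant with parental cells were GPAM, which was lower, and ACSS2, which was higher. GPAM encodes the mitochondrial acyltransferase that starts glycerolipid synthesis, and ACSS2 the cytosolic enzyme that makes acetyl-CoA from acetate. Their promoters are shown because these members moved in opposite directions within a pathway with shared regulators. The windows run from 250 bases before to 50 after the RefSeq transcription start in GRCh38.p14 and are written 5′ to 3′ on the strand of the gene. The GPAM window lies at chr10:112183716-112184015 on the minus strand, and the ACSS2 window at chr20:34874739-34875038 on the plus strand. Capitals mark matches on either strand to the NF-Y motif CCAAT and the Sp1 motif GGGCGG, which did not overlap in these windows.
GPAM: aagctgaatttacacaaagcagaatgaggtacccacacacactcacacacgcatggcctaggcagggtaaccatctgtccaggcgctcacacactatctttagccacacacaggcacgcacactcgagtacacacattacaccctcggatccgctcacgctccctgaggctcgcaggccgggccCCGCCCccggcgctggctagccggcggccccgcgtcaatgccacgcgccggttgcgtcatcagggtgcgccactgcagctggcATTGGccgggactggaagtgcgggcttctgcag
ACSS2: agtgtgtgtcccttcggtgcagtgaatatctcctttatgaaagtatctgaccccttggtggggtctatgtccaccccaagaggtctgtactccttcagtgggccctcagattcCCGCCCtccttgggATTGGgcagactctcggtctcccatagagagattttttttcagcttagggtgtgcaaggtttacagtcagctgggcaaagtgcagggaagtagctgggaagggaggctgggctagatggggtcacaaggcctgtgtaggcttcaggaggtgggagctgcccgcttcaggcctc

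Each window held 1 match to each of these 2 motifs and no match to the sterol regulatory motif searched, TCACNCCAC. The NF-Y match stood 18 bases after the start in GPAM and 123 bases before it in ACSS2. Promoters of 29 of the 32 members were in the table, those of FDFT1, SQLE and FASN not. The NF-Y letters occurred in 19 of the 29, or 65.5%, against 35.7% of all 27305 promoter windows of this length. The Sp1 letters occurred in 27, or 93.1%, against 44.6%, and the sterol motif only in that of SREBF2, or 3.45%, against 1.15%. The 27305 windows were not limited to the genes tested here, as the members are, so these shares lack a matched background. These matches describe letters in the windows and not binding.

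The first comparison asked how the members differed between Sorafenib-resistant and parental cells. Across the 4 resistant lines 14 members fell in at least 1 comparison and ACSS2 was the single member that rose, while 17 members passed the test in no comparison. At the same rule 28.4% of all genes tested were called lower, 43.4% higher and 68.3% in either direction in at least 1 of the 4. Huh7-IR showed the most calls, with 3 of 6 mevalonate genes and 5 of 11 sterol genes called lower. Huh7-CR and Hep3B-IR showed few, and Hep3B-CR an intermediate number. A member is called here where the adjusted p of the limma fit over all 15019 genes was under 0.05 and the log2 fold change, on the log2(CPM + 1) scale, was at least 0.58 in size.

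In Huh7-IR cells 11 of 32 members (34.4%) were called, all 11 lower, where 48.8% of all genes tested were called. The median log2 fold change over the members was -0.61, against 0.19 over all genes. TMM scaling, which moved the median of all genes to 0.04, put the members at -0.80, and called 14 members, all lower. Leaving out Huh7-IR replicate 2 gave 7 calls. In Huh7-CR cells 3 members were called, 1 higher and 2 lower, with 34.5% of all genes called and a member median of -0.16. In Hep3B-IR cells 4 were called, 1 higher and 3 lower, with 27.1% of all genes called and a member median of 0.01, which was -0.05 with TMM scaling. In Hep3B-CR cells 7 were called, 1 higher and 6 lower, with 32.2% of all genes called and a member median of -0.48. All 4 counts were a lower share of the members than was called among all genes in either direction. Of all genes called, 63.6% and 60.6% were higher in Huh7-IR and Huh7-CR, and 57.9% and 61.9% in Hep3B-IR and Hep3B-CR. Most called members were lower, so these shares do not compare falls alone. The share of all genes called with TMM scaling or without 1 library is not given here. Without 1 library the Huh7-CR count was 1 or 2, with 1 without CR replicate 1, CR replicate 2 or parental replicate 2. The Hep3B-IR count was 2 without IR replicate 1 or parental replicate 2, and the Hep3B-CR count was 2 without parental replicate 2 and 3 without either CR replicate.

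**Figure D1:**
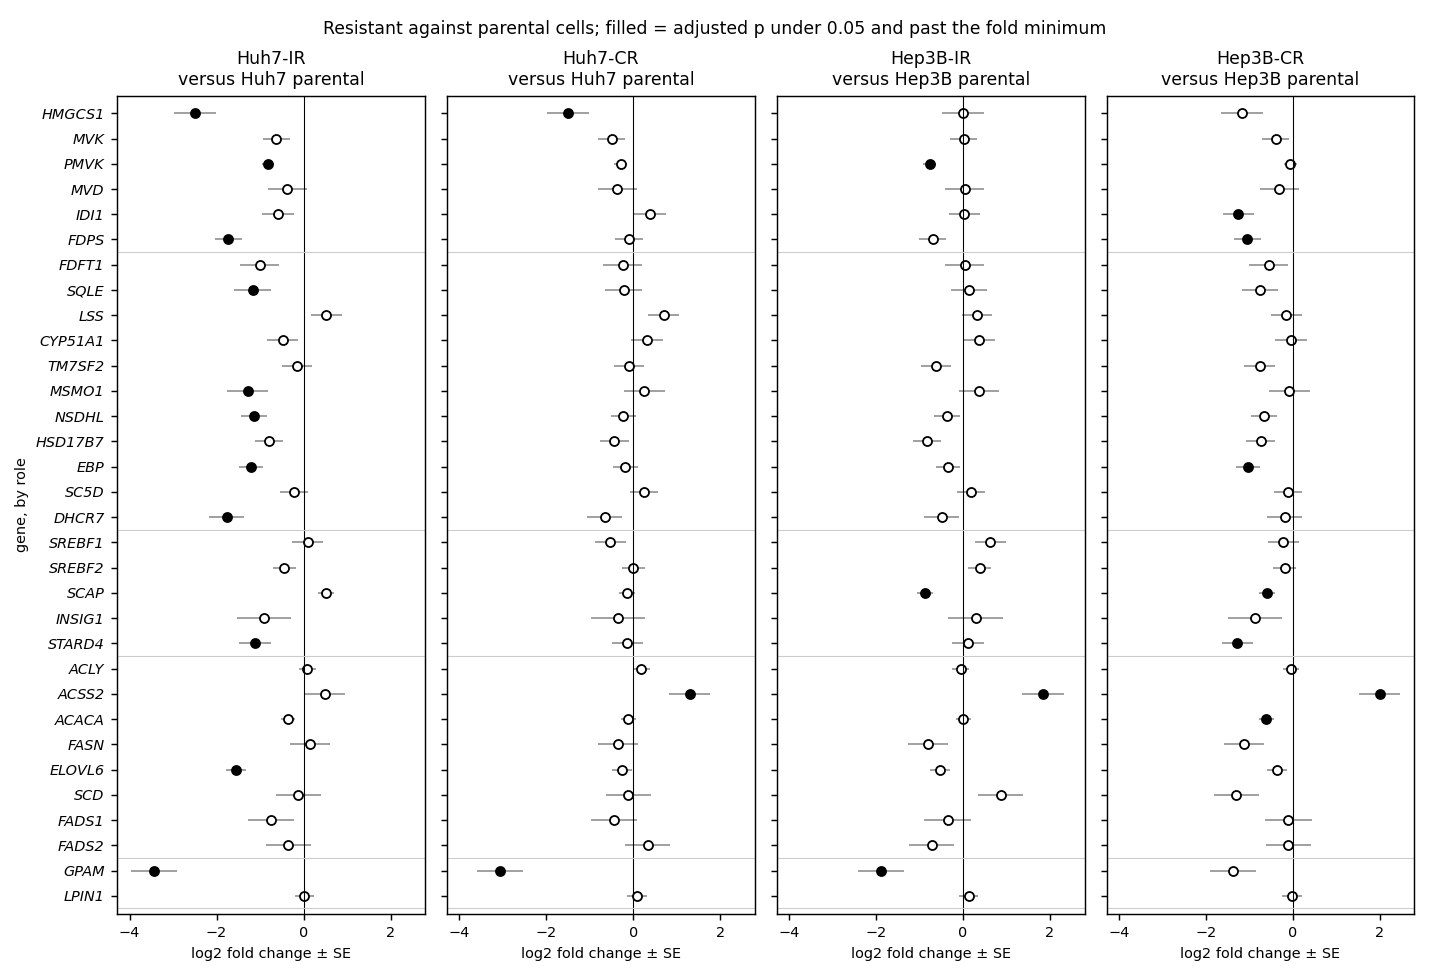
Log2 fold change (x axis, on the log2(CPM + 1) scale) with its SE for each of the 32 genes (y axis, by role) in the 4 comparisons of resistant with parental cells, 2 libraries per group. Filled points were called, 11 and 3 in the Huh7 panels (IR, CR) and 4 and 7 in the Hep3B panels. GPAM lies furthest to the left in every panel and ACSS2 furthest to the right in all but Huh7-IR.

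GPAM (hg19 chr10:113909623-113975135) was at 7.01 and 26.7 CPM in the Huh7 parental libraries, 0.398 and 0.365 CPM in Huh7-IR and 0.819 and 0.759 CPM in Huh7-CR. Both resistant groups lay below the lower parental library. The log2 fold change was -3.43 ± 0.53 (SE, n = 2 per group, limma adjusted p = 0.000175) in Huh7-IR and -3.06 ± 0.53 (limma adjusted p = 0.00071) in Huh7-CR. In Hep3B, GPAM was at 1.4 and 4.95 CPM in parental cells, 0.0268 and 0.0142 CPM in IR and 0.636 and 0.286 CPM in CR. The 2 Hep3B-IR libraries held 3 GPAM reads in all, against 456 in the parental libraries, a ratio of 0.00659 with an exact 95% interval of 0.00135 to 0.0194 that covers counting error only. GPAM was called lower in Hep3B-IR (log2 fold change -1.89 ± 0.53, limma adjusted p = 0.0171) but not in Hep3B-CR (-1.38 ± 0.53, adjusted p = 0.0575). The fold depends on which parental library is taken, since these differed from each other. Without Hep3B parental replicate 2 the Hep3B-IR value was -1.23 (adjusted p = 0.185), and with 1 of the 2 Hep3B-IR libraries left out it was -1.90 or -1.88 (adjusted p = 0.0773 and 0.07).

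ACSS2 (hg19 chr20:33459949-33515765) was at 14 and 12.3 CPM in Hep3B parental cells, 50.7 and 48.1 CPM in Hep3B-IR and 56.8 and 54 CPM in Hep3B-CR. The 4 resistant libraries lay within a narrow range that did not overlap the parental one. The log2 fold changes were 1.84 ± 0.47 (limma adjusted p = 0.0106) in Hep3B-IR and 2.00 ± 0.47 (limma adjusted p = 0.00565) in Hep3B-CR. The SE of each gene is pooled over all 8 groups. For ACSS2 it takes in the Huh7 DMSO replicates, which differed by 2.16 on the log2 scale. In Huh7, ACSS2 was at 41 and 44.1 CPM in parental cells, 65 and 55.8 CPM in IR and 93.1 and 121 CPM in CR. It was called higher in Huh7-CR (1.30 ± 0.47, limma adjusted p = 0.0435) and not in Huh7-IR (0.49 ± 0.47, adjusted p = 0.393). The Huh7-CR call lay close to the threshold and was lost with any 1 of the 4 libraries left out (adjusted p from 0.0909 to 0.186) and with TMM scaling (adjusted p = 0.0553). The Hep3B-IR call was lost without IR replicate 1 (adjusted p = 0.0604) or parental replicate 2 (adjusted p = 0.0687).

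Within the mevalonate pathway, HMGCS1, the synthase that makes HMG-CoA, was at 614 and 1863 CPM in Huh7 parental cells, 222 and 163 CPM in Huh7-IR and 324 and 444 CPM in Huh7-CR. All 4 resistant libraries were below both parental ones, with log2 fold changes of -2.49 ± 0.48 for Huh7-IR (limma adjusted p = 0.000881) and -1.49 ± 0.48 for Huh7-CR (limma adjusted p = 0.0261). The Huh7-CR call was lost without either CR replicate (adjusted p = 0.152 and 0.0516) and without parental replicate 2, where the value was -0.69 (adjusted p = 0.291). In Hep3B it was at 203 and 412 CPM in parental cells, 222 and 374 CPM in IR and 124 and 130.5 CPM in CR. HMGCS1 passed in neither Hep3B comparison, although both CR libraries were below both parental ones. Annotation places exons of a gene on the opposite strand over 2497 of its 6627 exon bases, and whether counting used the strand is not given in the sources used here.

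PMVK, the kinase that phosphorylates phosphomevalonate, had the smallest called change in Huh7-IR and a narrow spread between replicates. It was at 34.8 and 32 CPM in Huh7 parental cells, 20.4 and 16.8 CPM in Huh7-IR and 27.6 and 26.7 CPM in Huh7-CR. In Hep3B it was at 13.3 and 13.2 CPM in parental cells, 7.23 and 7.46 CPM in IR and 12.1 and 13.3 CPM in CR. PMVK was called lower in both IR lines, with log2 fold changes of -0.82 ± 0.14 in Huh7 (limma adjusted p = 0.000476) and -0.77 ± 0.14 in Hep3B (limma adjusted p = 0.00167), and called in neither CR line (-0.29 and -0.06, adjusted p = 0.132 and 0.807).

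FDPS, which makes farnesyl diphosphate, fell in Huh7-IR (log2 fold change -1.73 ± 0.31, limma adjusted p = 0.000532) and Hep3B-CR (-1.05 ± 0.31, limma adjusted p = 0.0185). It was at 336 and 575 CPM in Huh7 parental cells, 161 and 109 CPM in Huh7-IR and 386 and 436 CPM in Huh7-CR. Of the sterol enzymes, SQLE, MSMO1, NSDHL, EBP and DHCR7 were called lower in Huh7-IR, with log2 fold changes between -1.14 and -1.77, and EBP also in Hep3B-CR. In Huh7-IR the EBP and DHCR7 calls held under all 23 alternatives, while SQLE and MSMO1 were each lost under 6 and NSDHL under 4. The EBP call in Hep3B-CR was lost under 3 of 23. DHCR7, the last reductase on the way to cholesterol, changed most of these, from 169 and 324 CPM in Huh7 parental cells to 72.9 and 63.8 CPM in Huh7-IR (-1.77 ± 0.40, limma adjusted p = 0.00236). IDI1, the isomerase of the mevalonate pathway, was called lower in Hep3B-CR alone among these comparisons (-1.25 ± 0.37, limma adjusted p = 0.0173). The IDI1 call was lost without either CR replicate or parental replicate 2 (adjusted p from 0.0601 to 0.185). The call of FDPS in Hep3B-CR was lost without any 1 of the 4 libraries (adjusted p from 0.0508 to 0.106).

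The genes of both SREBP factors and of INSIG1 were called in none of these comparisons. SREBF1 was at 41.3 and 46.5 CPM in Huh7 parental cells, 30.2 and 72 CPM in Huh7-IR and 25.2 and 36 CPM in Huh7-CR, and in Hep3B at 21.4 and 21.9 CPM in parental cells, 36.7 and 31.6 CPM in IR and 17.5 and 19.5 CPM in CR. SREBF2 was at 140.3 and 178 CPM in Huh7 parental cells, 126 and 106 CPM in Huh7-IR and 147 and 169 CPM in Huh7-CR, and in Hep3B at 87.5 and 108 CPM in parental cells, 124 and 129.8 CPM in IR and 75.4 and 95.9 CPM in CR. Neither gene passed the test against parental cells in any resistant line, with log2 fold changes from -0.53 to 0.63 for SREBF1 and from -0.44 to 0.38 for SREBF2. INSIG1 was at 39.5 and 134 CPM in Huh7 parental cells, 58.8 and 24.9 CPM in Huh7-IR and 48.9 and 66.3 CPM in Huh7-CR, and in Hep3B at 10.6 and 24.7 CPM in parental cells, 16.8 and 24 CPM in IR and 9.69 and 7.27 CPM in CR. Of its 8 resistant values, 5 lay between the 2 parental replicates of the line, and it passed in no comparison with parental cells (adjusted p from 0.234 to 0.781).

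SCAP was the member whose change differed between the lines. In Hep3B it was at 44.9 and 37.9 CPM in parental cells, 23.6 and 20.5 CPM in IR and 24.9 and 29.1 CPM in CR, with no overlap. It fell in Hep3B-IR (log2 fold change -0.88 ± 0.18, limma adjusted p = 0.00308) and in Hep3B-CR (-0.60 ± 0.18, limma adjusted p = 0.0217), the second lost without CR replicate 1 or parental replicate 1 (adjusted p = 0.137 and 0.141). In Huh7 it was at 50.1 and 42.8 CPM in parental cells, 64.4 and 68.9 CPM in IR and 37.9 and 46.5 CPM in CR. The Huh7-IR difference of 0.52 ± 0.18 had an adjusted p of 0.0289 but did not reach the fold minimum, and with TMM scaling it was 0.32 (adjusted p = 0.128). The sterol carrier STARD4 was lower in Hep3B-CR (-1.28 ± 0.36, limma adjusted p = 0.0155), at 5.67 and 4.66 CPM against 11.1 and 17.3 CPM in parental cells, and in Huh7-IR (-1.11 ± 0.36, limma adjusted p = 0.0201). Both STARD4 calls were lost without parental replicate 2 of the line (adjusted p = 0.136 and 0.261) and without replicate 2 of the resistant group (adjusted p = 0.0886 and 0.1).

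Among the 8 genes of fatty acid synthesis, besides ACSS2, ELOVL6 was called lower in Huh7-IR and ACACA in Hep3B-CR. ELOVL6, an elongase, was at 48.7 and 61.5 CPM in Huh7 parental cells and 14.9 and 21.8 CPM in Huh7-IR. FASN, the fatty acid synthase, had log2 fold changes from -1.12 to 0.15 and was called in none of the 4 comparisons. LPIN1, a phosphatidate phosphatase, had values within 0.13 of 0 in all 4.

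**Figure D2:**
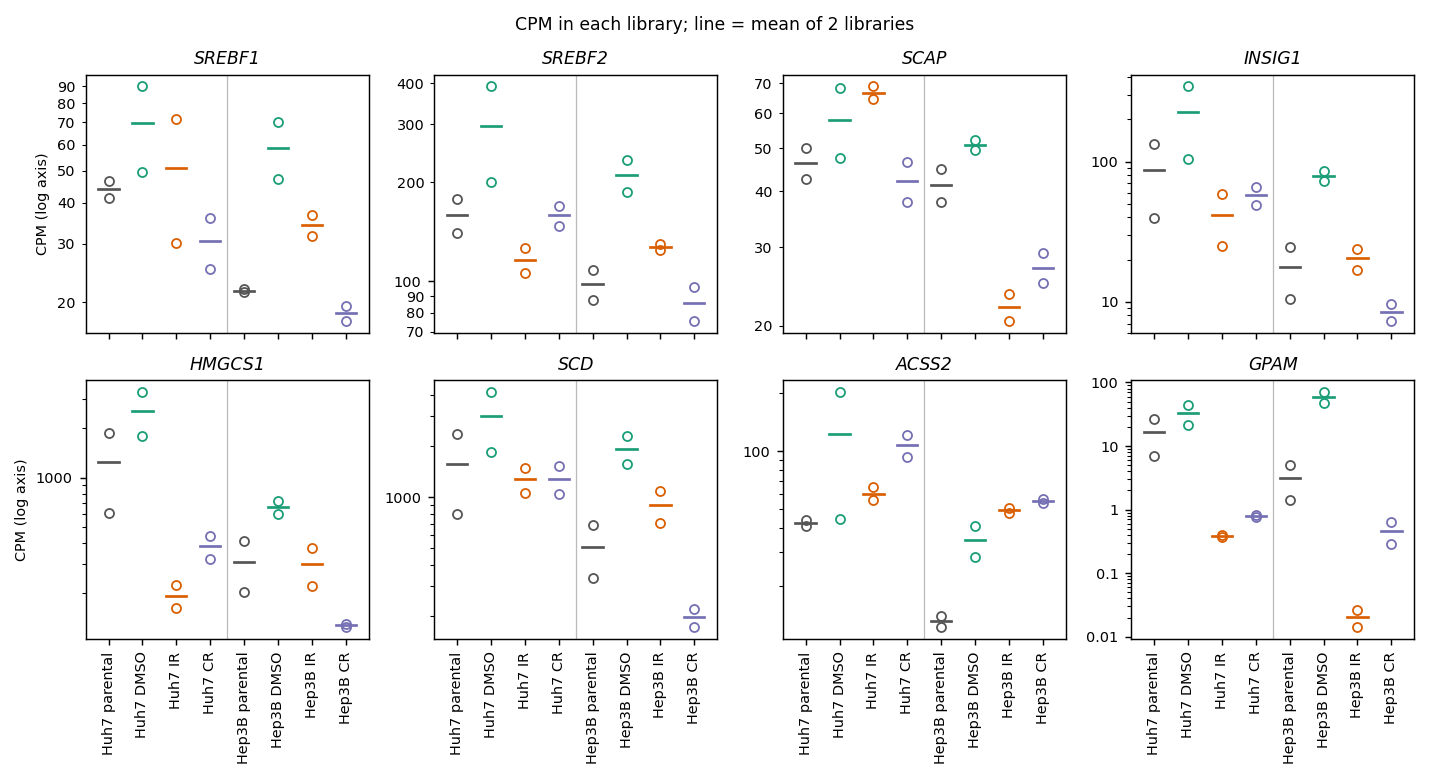
CPM in each of the 16 libraries (circles) and the mean of the 2 libraries of each group (bars) for 8 genes, on a log y axis, Huh7 groups on the left and Hep3B groups on the right of each panel. GPAM is lowest in the resistant groups of both lines, ACSS2 in Hep3B is higher in all 4 resistant libraries than in the 4 untreated ones, and the DMSO groups have the highest mean of the Huh7 groups in all panels but SCAP.

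The members also differed between replicates of 1 group. In the Huh7 parental group 29 of the 32 members were higher in replicate 2 than in replicate 1, with a median log2 difference of 0.77, where 36.1% of all genes were higher. In Hep3B parental cells 28 of 32 were higher in replicate 2, with a median of 0.53, where 34.6% of all genes were. In Huh7 DMSO cells 31 of 32 were higher in replicate 2, with a median of 0.90, where 56.6% of all genes were. The medians were smaller in size in the other groups, between -0.27 in Huh7-IR and 0.19 in Huh7-CR. Single members of Huh7-IR still differed by -1.57 (FADS1) to 1.22 (SREBF1). In Huh7-CR 27 of 32 members were higher in replicate 2, where 48.4% of all genes were. In Hep3B DMSO cells 26 of 32 were, where 49.0% of all genes were. GPAM differed most between the parental replicates, by 1.79 in Huh7 and 1.31 in Hep3B on the log2 scale, and SCAP, at -0.22 and -0.24, went the other way. In several groups the members moved together between replicates, so they are not independent of each other.

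Library composition also differed between these replicates. Over all genes, the log2 difference between replicates had a Spearman correlation with GC content of -0.53 in Huh7 parental and 0.51 in Huh7 DMSO cells, a description across genes. The members' exons ranged from 34.4% to 65.3% GC. After the dependence on GC was removed, 32 of 32 members in Huh7 parental, 30 in Hep3B parental and 31 in Huh7 DMSO cells were higher in replicate 2, with medians of 0.96, 0.61 and 0.82. The medians of both parental groups were larger after the correction than before it. More members were called in Huh7-IR without Huh7 parental replicate 1 than without replicate 2. The share of all genes called in these fits is not given here, so this is not a trait of the members.

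**Figure D3:**
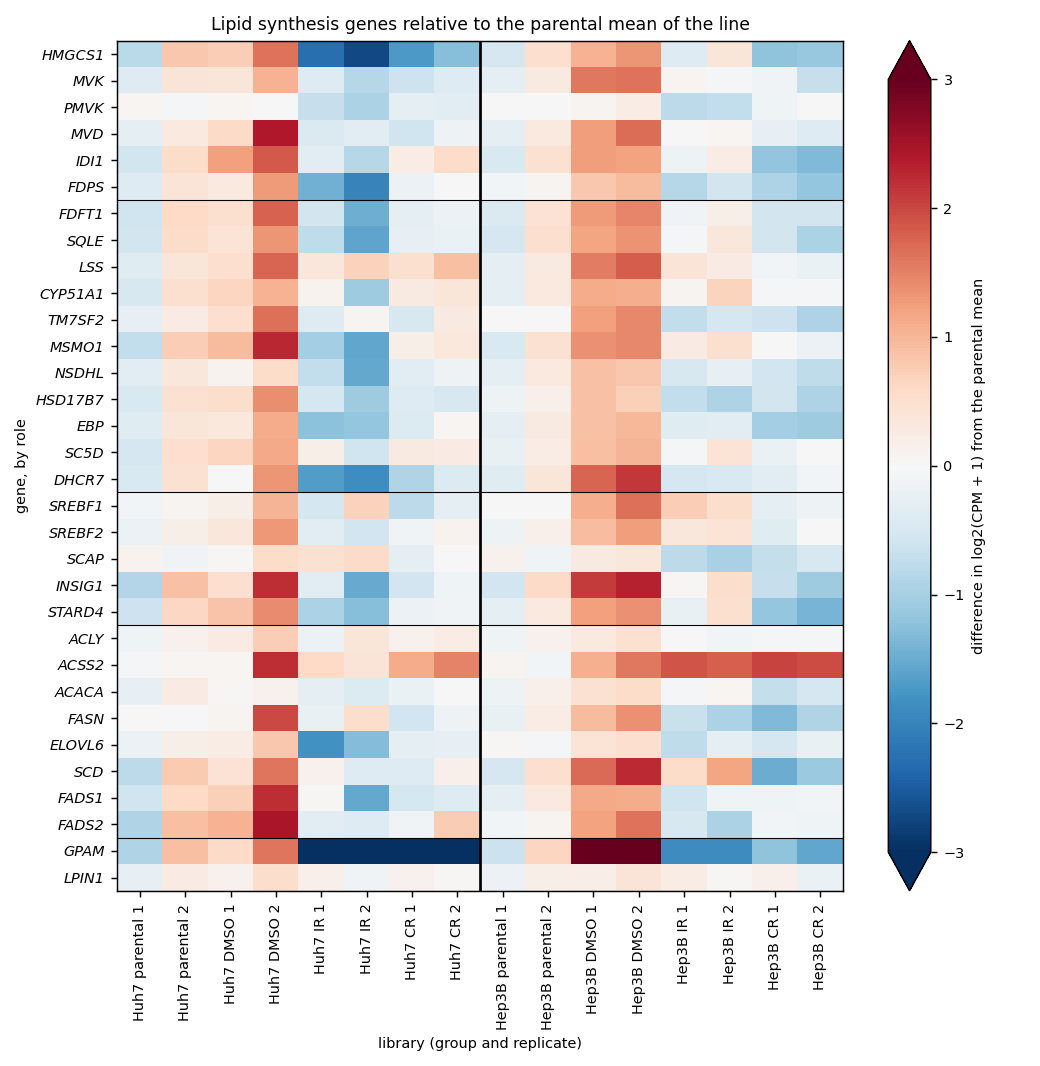
Difference in log2(CPM + 1) from the mean of the 2 parental libraries of the same line (colour, saturated beyond 3) for the 32 genes (rows, by role) in the 16 libraries (columns). The Huh7 DMSO 2 library and both Hep3B DMSO libraries are red for nearly all genes, and the parental libraries of replicate 2 are redder than those of replicate 1.

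The second comparison set DMSO against parental cells, both untreated. All 32 members had a positive log2 fold change in each line, as did 56.8% of all genes in Huh7 and 51.0% in Hep3B, but few passed the test. The members had a median of 0.92 in Huh7 and 1.21 in Hep3B, against 0.05 and 0.01 over all genes. In Hep3B both DMSO libraries lay above both parental libraries for 32 of 32 members, where this held for 32.3% of all genes, and in Huh7 for 17 of 32, where it held for 28.7%.

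At the call rule the counts were small, with 1 member higher in Huh7 DMSO, where 4.83% of all genes were called, and 4 higher in Hep3B DMSO, where 1.58% were. At an unadjusted p under 0.05 with the same fold minimum, 19 members passed as higher in Huh7, where 10.7% of all genes did, and 25 in Hep3B, where 5.63% did. A fit with edgeR on the recovered reads called 0 and 1. The share of all genes called with edgeR or without 1 library is not given here. The called member in Huh7 was IDI1, at 60.3 and 132 CPM in parental and 209.5 and 321 CPM in DMSO cells (log2 fold change 1.52 ± 0.37, limma adjusted p = 0.0362). Those called in Hep3B were GPAM, DHCR7, LSS and MVK. GPAM was at 70.3 and 48.2 CPM in Hep3B DMSO cells against 1.4 and 4.95 CPM in parental cells, a log2 fold change of 3.97 ± 0.53 (limma adjusted p = 0.00338). MVK, the mevalonate kinase, changed least of the called ones, from 5.53 and 8.52 CPM to 22.5 and 23.3 CPM (log2 fold change 1.60 ± 0.31, limma adjusted p = 0.0272), and its call was lost with any 1 of the 4 libraries left out (adjusted p from 0.0503 to 0.272). The GPAM call was lost without parental replicate 1 (adjusted p = 0.0513), and the count of 4 was 0 without that library and 1 without each of the others. The IDI1 call was lost without DMSO replicate 2 or parental replicate 1 (adjusted p = 0.297 and 0.22).

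The 2 DMSO groups differed in how far they rested on 1 library. Of the 8 Huh7 libraries, DMSO replicate 2 was the highest for 29 of 32 members, as it was for 18.7% of all genes, while in Hep3B DMSO replicate 2 was highest for 25 members and replicate 1 for 6. INSIG1 was at 105 and 344 CPM in Huh7 DMSO cells and 72.7 and 85 CPM in Hep3B DMSO cells. ACSS2 was at 44.5 and 202 CPM in Huh7 DMSO cells, a gap wider than any other member's, and at 28.3 and 41.2 CPM in Hep3B DMSO cells. SCD, the stearoyl-CoA desaturase, was at 1834 and 4153 CPM in Huh7 DMSO and 1572 and 2287 CPM in Hep3B DMSO cells, against 791 and 2361 CPM and 337 and 687 CPM in the parental cells. SREBF1 was at 49.6 and 90.1 CPM in Huh7 DMSO and 47.1 and 70.2 CPM in Hep3B DMSO cells, and SREBF2 at 200.2 and 391 CPM and at 186 and 233 CPM. SCAP, at 47.6 and 68.2 CPM and at 49.7 and 52.2 CPM, was among the members with the smallest difference from parental cells, 0.30 ± 0.18 in each line. More members were called in Huh7 DMSO without DMSO replicate 1 or parental replicate 2, and fewer without DMSO replicate 2 or parental replicate 1. The share of all genes called in these fits is not given here.

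With the DMSO cells as the untreated reference, most members were lower in every resistant line. In Huh7-IR 23 of 32 members were called, all lower, where 47.0% of all genes were called. In Huh7-CR 20 were, all lower, with 34.7% of all genes called. In Hep3B-IR 22 were, all lower, with 32.1% of all genes called, and in Hep3B-CR 27 were, all lower, with 32.9%. These shares of all genes count both directions, and 60.2%, 54.2%, 53.9% and 59.2% of the genes called were higher. The member medians were -1.62, -1.13, -1.20 and -1.68. The 4 comparisons use the same resistant libraries as those with parental cells, and the 2 in each line share their DMSO libraries.

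Sorted by library, both DMSO libraries lay above both resistant libraries for 25 (IR) and 30 (CR) of 32 members in Huh7 and for 30 (IR) and 31 (CR) in Hep3B. The same held for 27.3%, 31.9%, 35.4% and 32.8% of all genes. The 1 member below both resistant libraries in each Hep3B comparison was ACSS2, which was not called against DMSO cells in any line (log2 fold changes 0.52 ± 0.47 in Hep3B-IR and 0.68 ± 0.47 in Hep3B-CR, adjusted p = 0.423 and 0.279, and -0.65 and 0.16 in Huh7-IR and Huh7-CR). GPAM was lowest in all 4, with log2 fold changes of -4.52 and -4.15 in Huh7-IR and Huh7-CR and -5.86 and -5.35 in Hep3B-IR and Hep3B-CR (limma adjusted p from 7.15e-06 to 6.73e-05). GPAM in Hep3B-IR rested on 3 reads against 8924, a ratio of 0.000347 with an exact 95% interval of 7.16e-05 to 0.00101.

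INSIG1, which did not pass against parental cells, was lower than in DMSO cells in all 4 lines, by -2.28 ± 0.63 and -1.72 ± 0.63 in Huh7-IR and Huh7-CR and by -1.92 ± 0.63 and -3.08 ± 0.63 in Hep3B-IR and Hep3B-CR (limma adjusted p = 0.00857, 0.044, 0.0296 and 0.00215). SREBF2 was called lower in all 4 too, with log2 fold changes between -0.71 and -1.28 (limma adjusted p = 0.00142, 0.0242, 0.0482 and 0.00212 in the same order). The Hep3B-IR call of SREBF2 lay close to the threshold. SREBF1 was called lower in Huh7-CR and Hep3B-CR (-1.13 and -1.59, limma adjusted p = 0.0249 and 0.00416) and not in the IR lines (adjusted p = 0.253 and 0.127). With DMSO replicate 2 left out, a choice made after the data were seen, 17 members were called in Huh7-IR, 4 in Huh7-CR, 16 for Hep3B-IR and 24 for Hep3B-CR. With replicate 1 left out instead, 28 (IR) and 25 (CR) were called in Huh7 and 17 (IR) and 25 (CR) in Hep3B. The count in Huh7-CR thus rested on Huh7 DMSO replicate 2. The share of all genes called in these fits is not given here, so the counts describe how stable the calls were and not a trait of the members. With the mean of parental and DMSO groups as the reference, chosen after the data were seen, the counts were 21, 7, 14 and 24, also without that share.

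**Figure D4:**
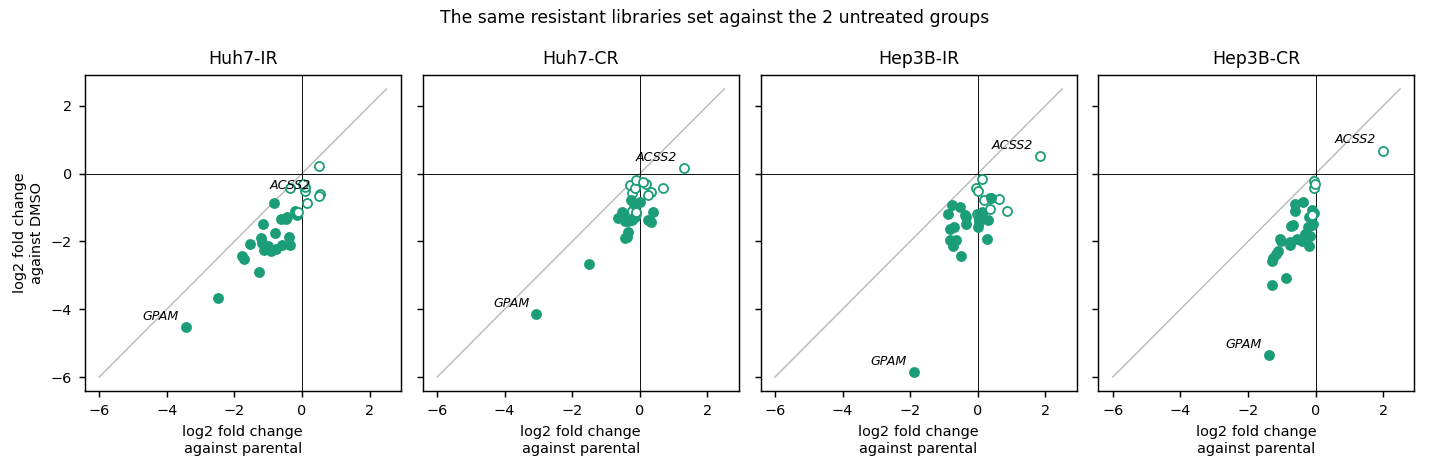
Log2 fold change of each of the 32 genes in the 4 resistant lines against parental cells (x axis) and against DMSO cells (y axis), both on the log2(CPM + 1) scale from the same resistant libraries. The grey line marks equality, points below it are lower against DMSO cells, and filled points were called against DMSO cells, 23, 20, 22 and 27 of 32.

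The 2 resistance regimens were compared within each line, without an untreated group. In Huh7 3 of the 32 members had a log2 fold change of IR against CR above 0, as did 59.5% of all genes, with a median of -0.50, against 0.09 over all genes. Here 5 members were called, SCAP higher and FDPS, MSMO1, EBP and ELOVL6 lower, where 13.7% of all genes were called. FDPS differed most (log2 fold change -1.63 ± 0.31, limma adjusted p = 0.00655), with the values given above. It was lost without CR replicate 2 (adjusted p = 0.061). SCAP, 0.65 ± 0.18 higher in IR (limma adjusted p = 0.0326), dropped to 0.56 with TMM scaling and to 0.21 with the GC correction, under the fold minimum in both, and was lost with any 1 of the 4 libraries left out.

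The Huh7 count was 2 without CR replicate 1 or IR replicate 2 and 1 without CR replicate 2. In Hep3B 22 of the 32 members had a log2 fold change of IR against CR above 0, as did 45.2% of all genes, with a median of 0.35, against -0.03 over all genes. There STARD4, ACACA, IDI1 and SCD were called higher in IR and PMVK lower, 5 members, where 11.7% of all genes were called. SCD was at 706 and 1087 CPM in Hep3B-IR and 172 and 221 CPM in Hep3B-CR, with parental values between them, and differed most (2.16 ± 0.52, limma adjusted p = 0.0183). IDI1 was at 75 and 98.4 CPM in IR and 36.5 and 33 CPM in CR (1.28 ± 0.37, limma adjusted p = 0.0375). The PMVK difference was -0.71 ± 0.14 (limma adjusted p = 0.00753). Without IR replicate 1, 3 members were called, without CR replicate 1 only PMVK was, and without replicate 2 of either group no member was. At an unadjusted p under 0.05, 11 members passed with the fold minimum in Huh7, where 21.0% of all genes did, and 8 in Hep3B, where 17.8% did. For the fits without 1 library the share of all genes called is not given here.

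The parental lines themselves differed in these genes. Of the 32 members 16 were higher and 1 lower in Huh7 than in Hep3B parental cells, 17 called, where 42.6% of all genes were called. The median log2 fold change was 0.74, against -0.05 over all genes. LPIN1 was at 26 and 36.8 CPM in Huh7 and 4.82 and 6.4 CPM in Hep3B parental cells, the largest difference among the members higher in Huh7 (2.28 ± 0.22, limma adjusted p = 4.15e-06). TM7SF2, a sterol reductase, was at 3.3 and 5 CPM in Huh7 and 24.4 and 24.9 CPM in Hep3B, the single member called lower (-2.34 ± 0.35, limma adjusted p = 0.000142). LPIN1 was at 26 CPM or more in all 8 Huh7 libraries and at 7.59 CPM or less in all 8 Hep3B libraries. INSIG1 (2.10 ± 0.63, limma adjusted p = 0.0143), DHCR7 (2.04 ± 0.40, limma adjusted p = 0.00104) and GPAM (1.98 ± 0.53, limma adjusted p = 0.00801) were also higher in Huh7. The count fell without Hep3B parental replicate 1 and without Huh7 parental replicate 2, and the share of all genes called in these fits is not given here.

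Whether the resistant lines differed from their parents by the same amount in Huh7 and Hep3B, averaged over IR and CR, was tested directly. SCAP alone passed, with a difference of Huh7 minus Hep3B of 0.93 ± 0.22 on the log2 scale (limma adjusted p = 0.00803), where 29.4% of all genes were called. The same value against DMSO cells was 0.93 ± 0.22 (limma adjusted p = 0.00713). The call was lost without Hep3B parental replicate 1 (0.81, adjusted p = 0.0501). In settings chosen after the data were seen, it was also lost against DMSO cells without DMSO replicate 1 (0.71, SCAP adjusted p = 0.0633) and with parental replicate 1 or 2 left out in both lines (0.92 and 0.93, adjusted p = 0.0701 and 0.0669). By contrast, the test called more members without Huh7 parental replicate 1 or Hep3B parental replicate 2, and the share of all genes called there is not given here. HMGCS1, which was called lower in Huh7 and not called in Hep3B against parental cells, had a difference of -1.40 ± 0.59 (adjusted p = 0.0917). That of GPAM was -1.61 ± 0.65 (adjusted p = 0.0797), and neither was called. Against DMSO cells the HMGCS1 difference was -1.39 (adjusted p = 0.0907) and that of GPAM was 1.27 (adjusted p = 0.154), the opposite direction. With the mean of both untreated groups as reference, HMGCS1 was called (-1.39 ± 0.48, limma adjusted p = 0.0356) and GPAM was not (-0.17, adjusted p = 0.83). Hep3B-IR held 3 GPAM reads against 456 in Hep3B parental cells, a ratio of 0.00659. The pseudocount makes this fall smaller on the log2(CPM + 1) scale, and more so where the reference is low. The GPAM line differences depend on that floor and do not rank the falls in the 2 lines.

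A further 23 genes of sterol and fatty acid metabolism that are not among the 32 were read alongside, of which 22 were tested and THRSP was filtered out. Against parental cells 2 were called higher and 7 lower in Huh7-IR, and 2 higher and 4 lower in Huh7-CR. In Hep3B-IR 3 were called higher and 2 lower, and in Hep3B-CR 4 higher and 6 lower. Of all genes tested, 48.8%, 34.5%, 27.1% and 32.2% were called in either direction in these 4 comparisons. LBR, a nuclear envelope protein with sterol reductase activity, was lower in all 4 resistant lines. It was at 276 and 313 CPM in Huh7 parental cells, 47.8 and 64.6 CPM in IR and 141 and 152 CPM in CR, and in Hep3B at 488 and 542 CPM in parental cells, 148 and 149 CPM in IR and 133 and 147 CPM in CR. Its log2 fold change was -2.38 ± 0.19 in Huh7-IR, -1.79 ± 0.19 in Hep3B-IR and -1.87 ± 0.19 in Hep3B-CR (over all 4 lines limma adjusted p from 9.73e-07 to 0.00116). Between DMSO and parental cells its log2 fold change was -0.07 in Huh7 and 0.00 in Hep3B (adjusted p = 0.866 and 1).

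TMEM97, a sterol-regulated membrane protein, fell in Huh7-IR, Huh7-CR and Hep3B-CR (log2 fold changes -2.96, -1.69 and -1.64, limma adjusted p from 2.18e-06 to 0.0004) and was at -0.49 in Hep3B-IR (adjusted p = 0.171). ELOVL5, an elongase of polyunsaturated fatty acids, rose in Huh7-IR, Huh7-CR and Hep3B-IR (1.52, 1.86 and 1.35, limma adjusted p from 4.66e-05 to 0.000716). ABCG1, a cholesterol exporter, was at 0 and 0.0422 CPM in Hep3B parental cells and 2.3 and 2.89 CPM in Hep3B-CR, 326 reads against 3, a ratio of 123 with an exact 95% interval of 41.8 to 601 for counting error only. It was called higher there (limma adjusted p = 0.0128) and not in the other 3 lines.

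Annotation limits some of these values. Exons of 18 of the 32 members share bases with another annotated gene, most of them antisense, among them HMGCS1, FDPS, IDI1, SREBF2 and the neighbouring desaturases FADS1 and FADS2. The overlap of EBP, and most of that of CYP51A1, is with other annotated genes on the same strand, and TM7SF2, FADS1 and FADS2 have short overlaps of that kind. IDI1, FDPS, CYP51A1, HSD17B7 and SCD have named pseudogene copies, and since only uniquely mapping reads were counted, reads shared with a copy were lost.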

How the data were processed

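RNA-seq was made from 16 libraries, 2 for each of 8 groups assigned from the titles. The authors mapped reads with STAR to hg19, kept unique hits, counted them over RefSeq exons with QuasR 1.12.0 and deposited the values as CPM per gene, the reads scaled to the library total. The labels name a stranded poly(A) kit. The methods name a stranded total RNA kit and also state that poly(A) RNA was sequenced. The use of strand in counting is not given in the sources used here. Whole reads were recovered from the CPM steps (100% of values within 0.05 of a whole number), so that a call with edgeR 4.0.16 or DESeq2 1.42.0 could be run as an alternative. In comparison with parental cells, edgeR called 7680 genes in Huh7-IR and 4987 in Hep3B-CR. No column was left out as belonging to another series.

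The 15019 genes that reached 1 CPM in 2 or more libraries were tested on log2(CPM + 1) with limma 3.58.1 (trend) in R 4.3.3, in a single fit of the 8 groups, with Benjamini-Hochberg adjustment. The pseudocount makes fold changes of low genes smaller than they are. Calls required both an adjusted p under 0.05 and a change of 0.58 or more in size on the log2 scale. Simulated data held 200 changed genes among the 15019 in Huh7-IR against parental cells. Of 2-fold changes 28% were recovered and of 4-fold changes 77%, with 6 false calls. In the data 48.8% of genes were called in that comparison, a far larger share, so these rates do not carry over to it. Alternatives were TMM or quantile scaling, other pseudocounts and filters, other sets of libraries, a replicate block, a GC correction (GC known for 97.2% of the genes), DMSO cells as reference and each library left out.

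The 32 members and all lists, tests and alternatives were chosen with earlier results of these data known. Genes are named where they are SREBF1, SREBF2, SCAP or INSIG1, were called in the same direction in at least 3 of the 4 comparisons with parental cells, in opposite directions in the 2 lines (none at the call rule), or for the difference between lines, or had the largest or the lowest called value of a comparison. HMGCS1, DHCR7, ELOVL6, FASN, MVK and LPIN1 and others outside that rule were named after their values were seen. Of the other 22 tested pathway genes, the pair with the largest and the pair with the lowest mean change are named. Intervals cover counting error only. Promoters came from RefSeq (GRCh38.p14), and their coordinates were not mixed with hg19.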

Additional observations from a re-analysis of the deposited data

Results flagged for a closer look

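SCAP was flagged because the change from parental to resistant cells differed between the 2 cell lines by a test of the difference itself. The value was 0.93 on the log2 scale for Huh7 minus Hep3B (SE 0.22, limma adjusted p = 0.00803 over 15019 genes). SCAP was lower in both Hep3B resistant groups than in parental cells in 4 of 4 libraries. In Huh7 it was above both parental libraries in the 2 IR libraries and not in the CR ones. No group held enough libraries for a check of single outlying libraries.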

How the results depend on the processing

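Of 58 calls of single members, 16 held under every alternative run for them and 42 were lost under at least 1. ACSS2 in Huh7-CR changed direction, to -0.92 with DMSO cells as reference and DMSO replicate 1 left out. Counts of called members that moved by over 1.5 times were as follows, against parental cells unless stated. In Huh7-IR (11) the count was 17 with DESeq2, with GC correction or with the replicate block and GC correction together, 7 with the groups alone, 23 against DMSO cells and 21 against the mean of both references. In Huh7-CR (3) it was 1 without the filter or with the line alone, 20 against DMSO cells and 7 against the mean. In Hep3B-IR (4) it was 10 with the line alone, 9 with the groups alone, 22 against DMSO cells and 14 against the mean. In Hep3B-CR (7) it was 14 with the unadjusted p, the line alone or the block with GC correction, 15 with DESeq2, 11 with quantile scaling or the replicate block, 27 against DMSO cells and 24 against the mean. With DMSO as reference and its replicate 1 left out the counts were 28 (IR) and 25 (CR) in Huh7 and 17 (IR) and 25 (CR) in Hep3B, and without its replicate 2 they were 17 in Huh7-IR, 16 in Hep3B-IR, 24 in Hep3B-CR and 3 for the difference between lines. For DMSO against parental cells in Huh7 (1) it was 19 with the unadjusted p, 10 with DESeq2, 7 with the replicate block, 4 with the block and GC correction and 0 with edgeR, no filter, the line alone or the groups alone. In Hep3B (4) it was 25 with the unadjusted p, 19 with the line alone, 10 with DESeq2, 9 with the replicate block, 7 with the block and GC correction, 2 with GC correction, 1 with edgeR or no filter and 0 with the groups alone. For Huh7-IR against CR (5) it was 11 with the unadjusted p, 9 with DESeq2, 8 with the block and GC correction, 3 without the filter and 0 with the line or the groups alone. For Hep3B-IR against CR (5) it was 8 with the unadjusted p and 3 without the filter. For the difference between lines (1) it was 3 with the unadjusted p and 2 with DESeq2, the groups alone, the replicate block, the block and GC correction or the mean reference. Without parental replicate 1 in both lines the count was 18 in Huh7-IR, 11 in Hep3B-CR, 0 in Huh7 DMSO and 1 in Hep3B DMSO. Without parental replicate 2 in both it was 7 in Huh7-IR, 2 in Hep3B-IR, 0 in Hep3B-CR, 3 in Huh7 DMSO, 8 between the parental lines and 0 for the difference between lines. Leaving out 1 library at a time gave 7 to 19 (IR) and 1 to 2 (CR) calls in Huh7, 2 to 4 (IR) and 2 to 8 (CR) in Hep3B, 0 to 21 in Huh7 DMSO, 0 to 1 in Hep3B DMSO, 1 to 6 and 0 to 3 for IR against CR in Huh7 and Hep3B, 6 to 18 between the parental lines and 0 to 3 for the difference between lines. For most of these settings the share of all genes called is not set beside the count. The cause of these shifts was not tested. The mean reference and the settings that leave out a DMSO or parental replicate in both lines were chosen after seeing the data. Correlations between groups of the replicate 2 minus replicate 1 difference ran from -0.22 to 0.44, with 13 of 28 over 0.1, so that the numbers pair some groups' libraries in part and not all, and the samples were treated as sharing only a number. With 2 libraries per group, small changes of single genes were often not detectable.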
